A study of Mus musculus with 6 samples.

Results

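The genes described here are 37 genes of the neuronal cytoskeleton and of neuronal vesicles, chosen by name as a set that nerve cells use together, without a threshold on any measured value. They were chosen with earlier results of these data known. All 37 were matched by symbol to an Ensembl gene among the 39179 genes counted, and 36 of them had at least 1 CPM (a count scaled to 1000000 counts on genes in its library) in 3 or more libraries, among 14723 genes that did so in all. The gene below that limit was Neurod1, a transcription factor of neuron development, with 1 to 8 counts per library. RNA came from the sensory epithelium of the cochlea (the hearing organ) and of the vestibule (the balance organ) of newborn wild-type C57Bl/6J mice at P0 (age 0 days), male and female animals pooled, with no treatment or mutation in either group. Each tissue had 3 RNA-seq libraries, and for each the labels name a pool of at least 20 organs. They do not say whether the 3 libraries of a tissue came from separate pools, so p-values measure only the spread between these libraries, which may be technical.

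Neurons are kept in shape by microtubules, built from tubulins such as Tubb3 and steadied or loosened by bound proteins, and by neurofilaments, which fill the axon. At the synapse, small vesicles release transmitter through proteins such as Snap25 and Syt1, while dense-core granules carry peptides and granins. In the inner ear the nerve cell bodies lie in the spiral and vestibular ganglia beside the sensory epithelium, and their fibres run into it. Many genes of the set are used by other cell types as well, among them Uchl1 and Map1b.

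Libraries held 24464483 to 33664793 counts on genes, so that 1 CPM stands for 24.5 to 33.7 counts. All pairs of libraries of 1 tissue differed by more than sampling noise, the chi-square over degrees of freedom being 20.8 to 71.6. All 10 hair cell markers passed the limit of 1 CPM, and their summed level was 569 to 785 CPM in the cochlea and 1148 to 1411 CPM in the vestibule. One library stood apart: cochlea replicate 3 held 318 CPM of 7 skeletal muscle markers, against 4.74 and 9.44 CPM in the other cochlear libraries and 9.39 to 29.4 CPM in the vestibule. The count of called members, in all and by role, is given with and without it.

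The members' levels differed between libraries of 1 tissue as well as between the tissues. Their summed level was 2286, 2200 and 1168 CPM in cochlea replicates 1, 2 and 3 and 1103, 606 and 701 CPM in vestibule replicates 1, 2 and 3. Cochlea replicates 1 and 2 were thus the highest, cochlea replicate 3 and vestibule replicate 1 lay side by side in the middle, and vestibule replicates 2 and 3 were the lowest. As a share of all counts on genes the members took 0.229% in the highest library and 0.0606% in the lowest. Averaged over libraries, cochlear libraries summed to 1885 CPM ± 622 (SD, n = 3) and vestibular libraries to 803 ± 264, a ratio of 2.35. That ratio stayed between 2.09 and 2.88 with each library left out in turn. In bulk tissue, fewer cells of a type and less RNA per cell cannot be told apart.

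**Figure D1:**
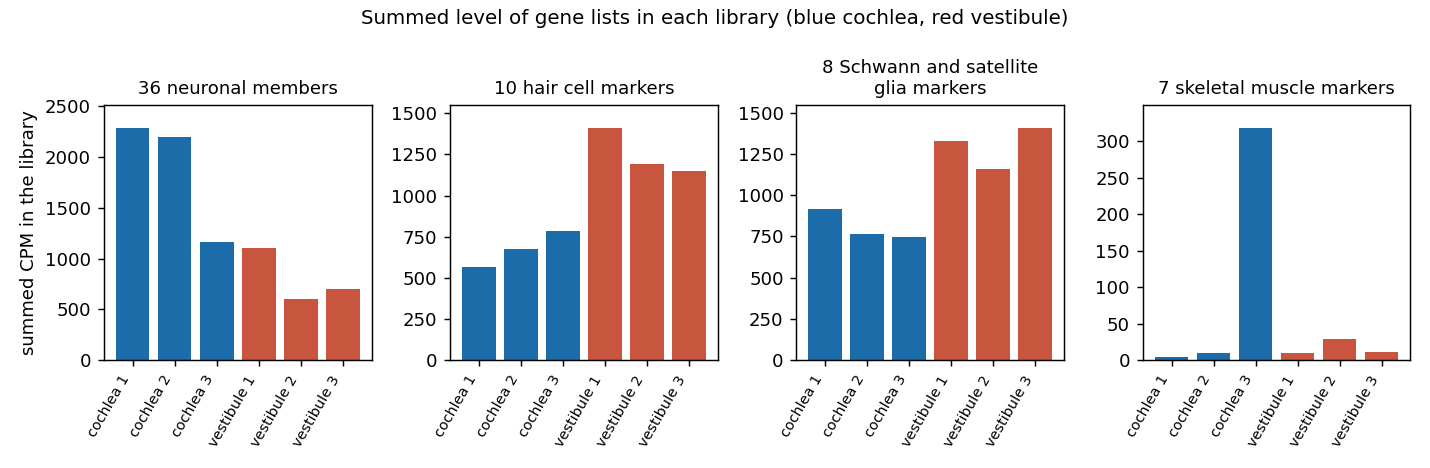
Summed CPM of the 36 members and of 3 marker lists in each of the 6 libraries, 1 bar per library, on axes that start at 0. The members fall from 2286 CPM in cochlea 1 to 606 CPM in vestibule 2, with cochlea 3 (1168 CPM) next to vestibule 1 (1103 CPM), while hair cell and Schwann cell markers are higher in every vestibular library and muscle markers stand out in cochlea 3.

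Gene by gene the order of libraries was much the same. Cochlea replicate 3 was the lowest cochlear library for 35 of 36 members (97.2%), against 32.8% of all genes tested, and vestibule replicate 1 the highest vestibular library for 31 (86.1%), against 48.8%. In cochlea replicate 3 the CPM of 25 members lay below 0.5 times the mean of replicates 1 and 2 (69.4% of members, 2.06% of all genes). In vestibule replicate 1 the CPM of 17 members exceeded 2 times the mean of replicates 2 and 3 (47.2% of members, 2.63% of all genes). Both held for 13 members, which were Tubb3, Mapt, Dcx, Stmn2, Nefl, Nefm, Nefh, Ina, Snap25, Elavl2, Elavl3, Elavl4 and Cntn2, and for 93 of all genes tested (0.632%). The list of 13 was drawn from these values and has no test.

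**Figure D2:**
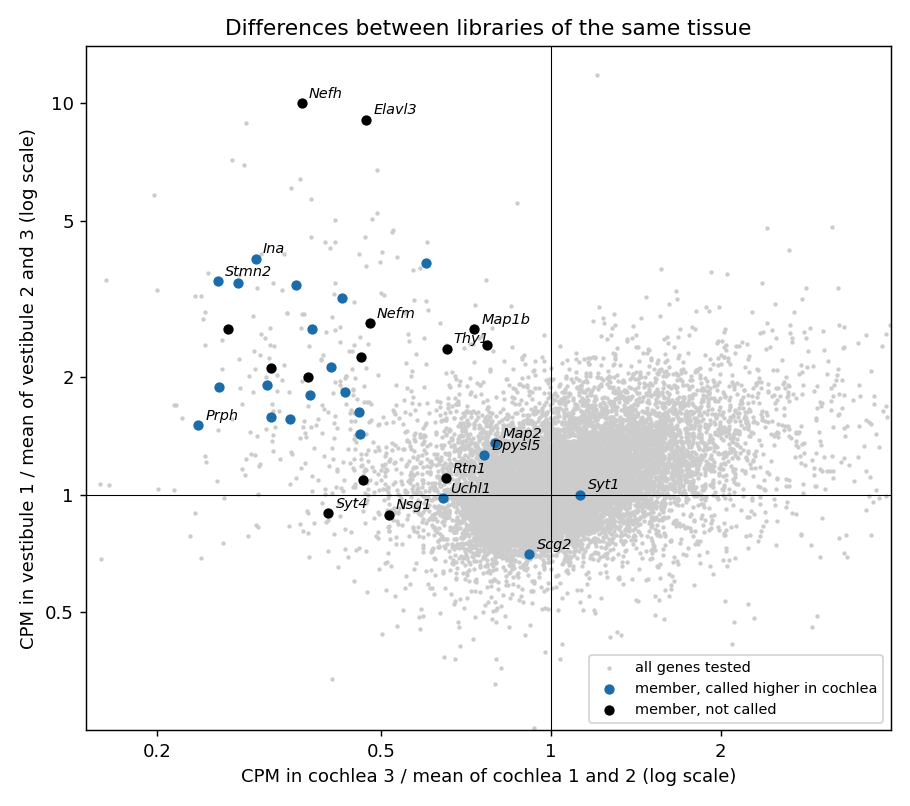
Each point is 1 gene. The x axis is its CPM in cochlea 3 divided by the mean of cochlea 1 and 2, the y axis its CPM in vestibule 1 divided by the mean of vestibule 2 and 3, both on log scales; blue points are members called higher in the cochlea, black points other members and grey points all genes tested, except 29 with no count in some library and 64 outside the axes. Most members lie at the upper left (medians 0.428 and 1.95) while the medians of all genes are 1.03 and 1.06, and Syt1, Scg2, Uchl1, Map2, Dpysl5, Nsg1 and Rtn1 lie nearer to the main cloud.

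Spread between replicates was accordingly wide for these genes. The SD of log2 CPM over the 3 cochlear libraries had a median of 0.74 over the members and 0.22 over all genes tested, and over the 3 vestibular libraries 0.72 and 0.18. In the cochlea 26 members, and in the vestibule 24, had an SD above that of 90% of all genes. Without cochlea replicate 3 the members' median SD in the cochlea was 0.16, and without vestibule replicate 1 that in the vestibule was 0.44.

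For 7 members neither departure was seen. Syt1, the calcium sensor of vesicle release, had 107, 131 and 134 CPM in the cochlea and 41.1, 33.8 and 48.6 CPM in the vestibule. It was highest in cochlea replicate 3, where most members were low. Scg2, a granin of dense-core granules, had 28.8, 24.6 and 24.4 CPM in the cochlea and 7.37, 13.2 and 7.69 CPM in the vestibule. The others were Uchl1, Map2, Dpysl5, Nsg1 and Rtn1, whose CPM in cochlea replicate 3 was 0.516 to 0.796 times the mean of replicates 1 and 2. For Syt1, Scg2, Uchl1 and Dpysl5 all cochlear libraries lay above all vestibular ones.

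**Figure D3:**
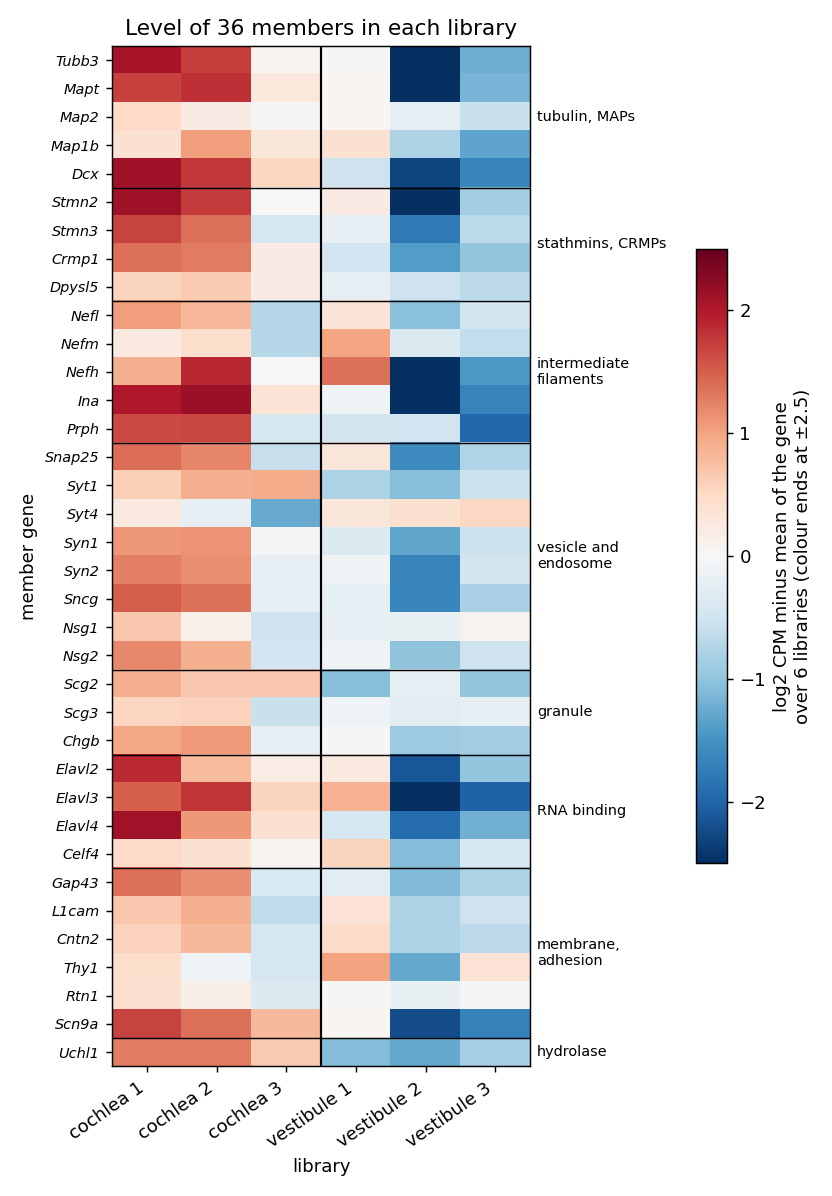
Rows are the 36 members by role and columns the 6 libraries; colour is log2 CPM minus the mean of that gene over the 6 libraries, with the colour scale ended at ±2.5. Cochlea 1 and 2 are red for nearly all rows and vestibule 2 is blue for nearly all, whereas cochlea 3 and vestibule 1 are pale, Nsg1 and Rtn1 differ little between the tissues, and Syt4 is lowest in cochlea 3.

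Between the tissues the direction was towards the cochlea. The comparison asks which genes differ in mRNA between the 2 sensory epithelia, and was made with edgeR's quasi-likelihood test over all 14723 genes. Log2 fold changes are vestibule minus cochlea, so that negative values mean more in the cochlea. At an FDR of 0.05, 22 of 36 members (61.1%) were higher in the cochlea and 0 higher in the vestibule, where 11.6% of all genes tested were called in the cochlear direction and 15.8% in the vestibular direction (27.4% in either). At an unadjusted p under 0.05 in edgeR there were 25 of 36 members in either direction, beside 5730 of the 14723 genes tested. DESeq2 also called 22 members in the cochlear direction (13.8% of all genes) and 0 in the other (16.8% of all genes). The median log2 fold change over the members was -1.58, a ratio of 2.99, beside 0.0048 over all genes tested. Of the 14 members not called, 12 had a negative log2 fold change.

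The libraries of the tissues did not overlap for 15 members (41.7%), near the share among all genes tested (41.8%). In 14 of these all cochlear libraries were above all vestibular ones (38.9% of members, 14.3% of all genes), and in Syt4 the reverse held. Vestibule replicate 1 exceeded cochlea replicate 3 in 22 members (61.1%, against 62.6% of all genes). Vestibule replicates 2 and 3 were both below all cochlear libraries in 28 members (77.8%, against 18.3% of all genes). With 1 library left out at a time, the count of members higher in the cochlea was set beside the share of all genes called in that direction. It was 30 without cochlea replicate 3 (12.8% of all genes) and 25 without vestibule replicate 1 (8.63%). Leaving out cochlea replicate 1 gave 11 (8.07%) and cochlea replicate 2 gave 9 (7.11%). Leaving out vestibule replicate 2 gave 14 (6.5%) and vestibule replicate 3 gave 12 (10%). The 8 members that gained the call without cochlea replicate 3 were Map1b, Nefl, Snap25, Nsg1, Scg3, L1cam, Cntn2 and Rtn1, with adjusted p of 0.00268 to 0.0484 in edgeR. Without vestibule replicate 1, Map1b, Nefh, Snap25, Elavl3 and Celf4 gained the call and Prph and Nsg2 lost it.

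**Figure D4:**
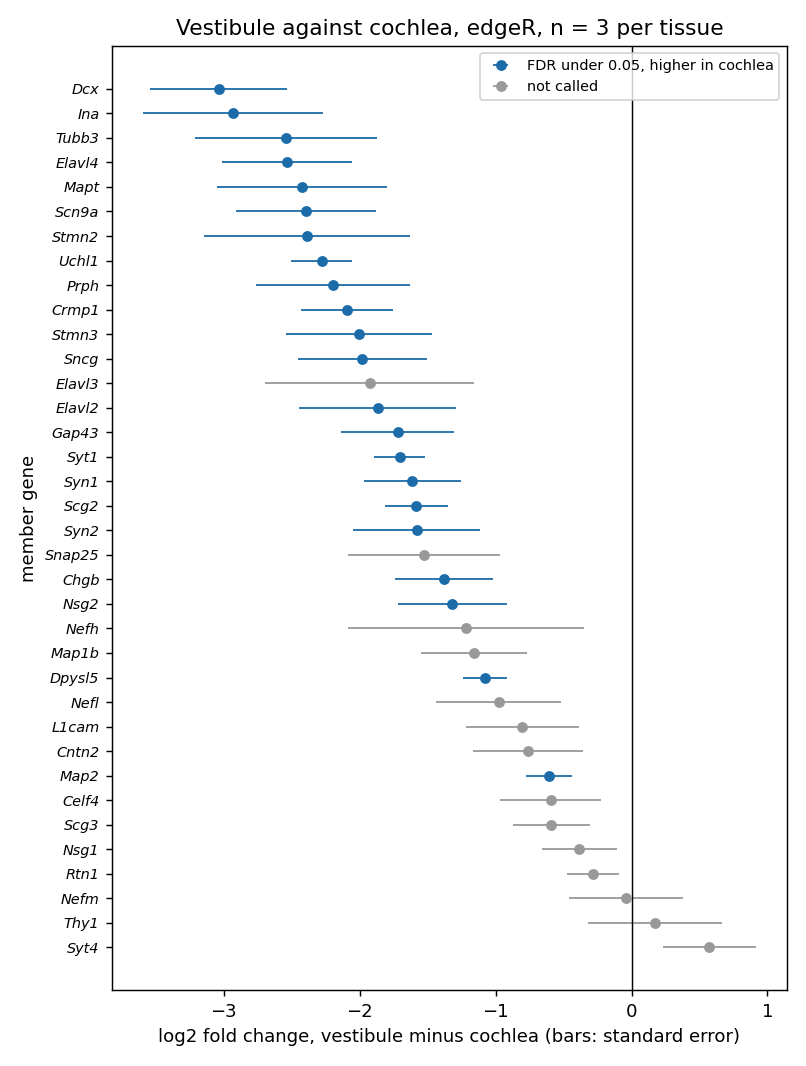
Log2 fold change, vestibule minus cochlea, of each member with its standard error as a bar (edgeR, 3 libraries per tissue); blue points passed an FDR of 0.05. All points but Thy1 and Syt4 lie left of 0, and bars are longest where replicates differed most, as in Nefh and Elavl3.

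Among the tubulin and microtubule-associated proteins, 4 of 5 were higher in the cochlea. All 5 were without cochlea replicate 3 or vestibule replicate 1, 3 without vestibule replicate 2, and 1 (Dcx) without cochlea replicate 1, cochlea replicate 2 or vestibule replicate 3. Dcx, the microtubule protein of young migrating neurons, had 109, 86.2 and 36.8 CPM in the cochlea and 17.6, 5.14 and 8.16 CPM in the vestibule, with all cochlear libraries above the vestibular ones. Its log2 fold change of -3.04 (standard error 0.50) was the largest among the members (edgeR, adjusted p = 0.00227), and it stayed called without each library in turn. Tubb3, the tubulin typical of neurons, had 146, 115 and 36.3 CPM against 35.5, 5.45 and 14.99 CPM. Cochlea replicate 3 and vestibule replicate 1 were nearly equal for it, and its log2 fold change was -2.54 (standard error 0.67; edgeR, adjusted p = 0.0222). Mapt, the axonal protein tau, had 81.4, 88.8 and 30.0 CPM against 25.96, 3.93 and 11.2 CPM, a log2 fold change of -2.42 (edgeR, adjusted p = 0.0205). Tubb3 and Mapt each lost the call in 3 of the 6 fits with 1 library left out. Map2, a dendritic protein, changed less, by -0.61 (edgeR, adjusted p = 0.0289), and Map1b, found in growing axons, had -1.16 and was not called (edgeR, adjusted p = 0.0582). Map1b was called without cochlea replicate 3 (edgeR, adjusted p = 0.0427) and without vestibule replicate 1 (edgeR, adjusted p = 0.00477).

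All 4 regulators of the stathmin and CRMP families were higher in the cochlea, also without cochlea replicate 3 or vestibule replicate 1, and 2 without any 1 of the other libraries. Stmn2, a stathmin that loosens microtubules in growth cones, had 117, 89.7 and 26.4 CPM in the cochlea and 31.0, 2.92 and 14.8 CPM in the vestibule. Its lowest cochlear library was below its highest vestibular one, and its log2 fold change of -2.39 (standard error 0.76) only just passed (edgeR, adjusted p = 0.046). Stmn3 of the same family had 96.5, 76.9 and 22.3 CPM against 25.8, 8.76 and 18.6 CPM and a log2 fold change of -2.01 (edgeR, adjusted p = 0.0238). Crmp1, which links guidance signals to the cytoskeleton, had 78.97, 74.5 and 35.1 CPM against 21.7, 11.4 and 15.2 CPM. Its libraries did not overlap, and its log2 fold change was -2.09 (standard error 0.34; edgeR, adjusted p = 0.00195). Crmp1 and Dpysl5, a CRMP with -1.08, stayed called without each library in turn, while Stmn2 and Stmn3 were called in 2 of the 6 such fits.

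Of the 5 intermediate filament genes, 2 were higher in the cochlea. The count was 3 without cochlea replicate 3, 1 without cochlea replicate 1 or vestibule replicate 3, 0 without cochlea replicate 2 and 2 in the other fits. Ina, the internexin of young neurons, had 74.8, 83.9 and 23.8 CPM in the cochlea and 17.6, 2.84 and 5.93 CPM in the vestibule, without overlap, and a log2 fold change of -2.93 (standard error 0.66; edgeR, adjusted p = 0.0111). Prph, a filament protein of peripheral neurons, had 11.04, 11.2 and 2.63 CPM against 2.55, 2.49 and 0.903 CPM. Cochlea replicate 3 was close to the vestibular libraries for Prph, and its log2 fold change was -2.20 (edgeR, adjusted p = 0.0206). The neurofilament subunits were not called. Nefm, the medium subunit, had 103, 118 and 52.9 CPM in the cochlea and 171, 68.0 and 56.95 CPM in the vestibule, so that vestibule replicate 1 was the highest of all 6 libraries. The log2 fold change of Nefm was -0.04 (standard error 0.42; edgeR, adjusted p = 0.957). Nefl, the light subunit, had -0.98 and Nefh, the heavy subunit, -1.22 with a standard error of 0.87. Nefh had 14.1 CPM in vestibule replicate 1 and 0.818 and 2.002 CPM in the others. Without vestibule replicate 1 Nefh was called in the cochlear direction (edgeR, adjusted p = 0.0136), and without cochlea replicate 3 Nefl was (edgeR, adjusted p = 0.0130).

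Of the 8 synaptic vesicle and endosome genes, 5 were higher in the cochlea. The count was 7 without cochlea replicate 3, 5 without vestibule replicate 1, 2 without cochlea replicate 2 and 3 without any 1 of the others. Syt1, with the CPM given above, had a log2 fold change of -1.71 (standard error 0.19; edgeR, adjusted p = 0.000232) and stayed called without each library in turn. Sncg, a synuclein, had 68.8, 63.2 and 20.7 CPM against 20.7, 7.79 and 13.9 CPM and a log2 fold change of -1.98 (edgeR, adjusted p = 0.0146). Its lowest cochlear and highest vestibular libraries were all but equal. Syn1, a synapsin that ties vesicles into a reserve, had 22.6, 23.3 and 10.5 CPM against 8.38, 4.36 and 7.34 CPM, without overlap, and a log2 fold change of -1.61 (edgeR, adjusted p = 0.0096). Syn2 and Nsg2 were called with -1.58 and -1.32. Snap25, a SNARE protein of vesicle fusion, had -1.52 and was not called (edgeR, adjusted p = 0.0757), but was without cochlea replicate 3 (edgeR, adjusted p = 0.00855) or without vestibule replicate 1 (edgeR, adjusted p = 0.0420). Nsg1, an endosomal protein related to Nsg2, had -0.38 and Syt4 0.57, neither of them called.

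Syt4, a synaptotagmin that does not act as a fast calcium sensor, was the member least like the rest. It had 8.62, 6.32 and 3.01 CPM in the cochlea and 8.94, 9.58 and 10.4 CPM in the vestibule, all vestibular libraries being higher. The difference was not called (edgeR, adjusted p = 0.253), nor in any of the 6 fits with 1 library left out, where adjusted p was 0.114 to 0.425.

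Of the dense-core granule genes, Scg2 and Chgb were higher in the cochlea and Scg3 was not called. All 3 were called without cochlea replicate 3, 2 without vestibule replicate 1, and 1 (Scg2) without any 1 of the others. Scg2 had a log2 fold change of -1.58 (standard error 0.23; edgeR, adjusted p = 0.0012), with no overlap of libraries. Chgb, a granin, had 30.1, 32.2 and 13.4 CPM in the cochlea and 15.2, 8.22 and 8.44 CPM in the vestibule, a log2 fold change of -1.38 (edgeR, adjusted p = 0.0212). Scg3, which helps sort granins, had 26.3, 27.05 and 12.4 CPM against 16.8, 15.1 and 15.7 CPM. Its vestibular libraries were alike, and cochlea replicate 3 lay below them, with a log2 fold change of -0.59 (edgeR, adjusted p = 0.159).

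Of the 4 RNA-binding genes, 2 were higher in the cochlea, also without cochlea replicate 3. All 4 were without vestibule replicate 1, and 1 (Elavl4) without any 1 of the others. Elavl4, a Hu protein that stabilises neuronal transcripts, had 36.5, 18.3 and 11.2 CPM in the cochlea and 6.33, 2.26 and 3.73 CPM in the vestibule. Its libraries did not overlap, and its log2 fold change of -2.53 (standard error 0.48) was called in all 6 fits with 1 library left out (edgeR, adjusted p = 0.00448 with all libraries). Elavl2 had 16.7, 7.88 and 5.24 CPM against 5.41, 1.05 and 2.36 CPM and a log2 fold change of -1.87 (edgeR, adjusted p = 0.0427). Elavl3 had a change of like size, -1.93, but was not called (edgeR, adjusted p = 0.0991), with 7.81 CPM in vestibule replicate 1 and 0.662 and 1.06 CPM in the others. Celf4, a splicing regulator, had -0.59 and was not called, with its highest level, 5.53 CPM, in vestibule replicate 1.

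Of the 6 genes for membrane and adhesion proteins of axons, 2 were higher in the cochlea. Without cochlea replicate 3 there were 5, with L1cam, Cntn2 and Rtn1 added (edgeR, adjusted p of 0.0199, 0.0484 and 0.0307). Without vestibule replicate 1 or 3 there were 2, and without any 1 of the others 1 (Scn9a). Scn9a, a voltage-gated sodium channel of sensory neurons, had 15.8, 12.7 and 8.55 CPM in the cochlea and 5.05, 1.05 and 1.53 CPM in the vestibule, without overlap. Its log2 fold change was -2.39 (standard error 0.52; edgeR, adjusted p = 0.00871). Gap43, a growth cone protein, had 51.5, 44.5 and 15.3 CPM against 16.2, 9.15 and 11.5 CPM and a log2 fold change of -1.72 (edgeR, adjusted p = 0.0154). Rtn1, a reticulon of the endoplasmic reticulum, had 169.7, 142 and 101 CPM against 131, 113 and 125 CPM. The cochlear libraries of Rtn1 enclose the vestibular ones, with a log2 fold change of -0.28 (edgeR, adjusted p = 0.31). The adhesion proteins L1cam and Cntn2 had -0.80 and -0.76, and Thy1, a surface protein, 0.17, none of them called.

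Uchl1, a ubiquitin hydrolase abundant in neurons, had the highest CPM of the set in every cochlear library, whereas Rtn1 was above it in every vestibular one. The values of Uchl1 were 307, 306 and 197 CPM in the cochlea and 59.6, 52.0 and 69.8 CPM in the vestibule. All cochlear libraries were well above all vestibular ones. As in Syt1, Syt4, Nsg1 and Scg2, vestibule replicate 1 was not the highest vestibular library. The log2 fold change of Uchl1 was -2.28 (standard error 0.22), called in all 6 fits with 1 library left out (edgeR, adjusted p = 0.000136 with all libraries). Without Uchl1 the cochlear sum was 1614 CPM ± 559 (SD, n = 3) and the vestibular sum 743 ± 263.

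In all, 9 members were called in each of the 6 fits with 1 library left out: Dcx, Crmp1, Dpysl5, Syt1, Syn1, Scg2, Elavl4, Scn9a and Uchl1. The other 13 of the 22 called lost the call in at least 1 of these fits. How many of all genes were called in each of the 6 fits was not counted, so the 9 have no background share beside them. Of the 9, 4 (Dpysl5, Syt1, Scg2 and Uchl1) were among the 7 members with neither departure described above.

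Between genes, levels were compared per length, as RPKM (CPM per kilobase of gene) from the deposited matrix. Uchl1 was the highest in each tissue, with a cochlear mean of 167 RPKM ± 39.2 (SD, n = 3) and a vestibular mean of 37.5 ± 5.53. In the cochlea Sncg (59.8 RPKM), Stmn3 (57.5), Tubb3 (53.0) and Stmn2 (40.8) came next, and their ranges over libraries overlapped one another. The order was another one in the vestibule, where Rtn1 (30.8 RPKM), Nsg1 (20.6) and Nefm (17.1) followed Uchl1. The members' median log2 RPKM was 3.04 for cochlear and 1.37 for vestibular libraries. The lowest were Cntn2 in the cochlea (0.713 RPKM) and Scn9a in the vestibule (0.239 RPKM).

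**Figure D5:**
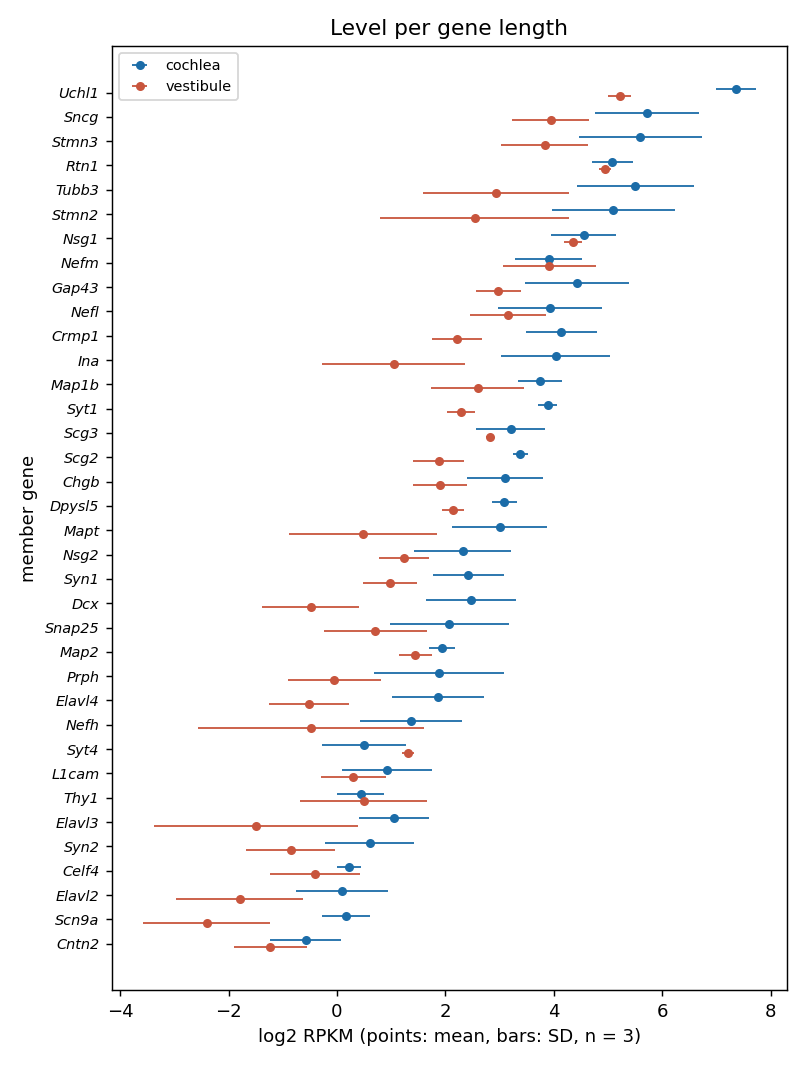
Log2 RPKM of each member in the cochlea (blue) and the vestibule (red), as mean and SD over 3 libraries, ordered by mean RPKM over all libraries. Uchl1 is at the top in each tissue, bars of most genes span more than 1 log2 unit, and Rtn1, Nsg1 and Nefm have nearly equal means in the tissues.

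Sequences before the gene start were looked at because the members moved together. RefSeq windows of 300 bases (250 before the gene start and 50 after, GRCm38.p6) were at hand for 26 of the 37 members. RE1 is the element bound by REST, a repressor that keeps many neuronal genes off in other cells. Its left part, CAGCACC, was found on either strand in 6 of the 26 (23.1%), against 8.14% of 27025 genes with a window, or 14.3% of the members' 42 windows against 7.14% of all windows. The 6 were Tubb3, Syn1, Nsg2, Chgb, Scg2 and Map1b. The right part, GGACAG, was found in 8 of 26 (30.8%, against 24.7%), and the joined form CAGCACCNNGGACAG, which contains both parts, in 0 of 26 (against 0.0407%). The E-box CAGATG was found in 8 (30.8%, against 19.2%), the E-box CAGCTG in 7 (26.9%, against 18.3%) and TATAAA in 4 (15.4%, against 15.7%). A match describes the letters only. The RefSeq start is not always the start of the Ensembl gene that was counted. Of 7 matches before the RefSeq start, in 5 genes, the stretches around 4 (Tubb3, Chgb, Scg2 and 1 of 2 in Nsg2) overlap an exon of that gene in GENCODE vM21, the other in Nsg2 lies inside the gene between exons, and both in Syn1 lie outside the gene. Shown here, so that the match can be read in place, are the 3 stretches free of exons, 5′ to 3′ on the strand of the gene with the match in capitals.
Nsg2 (chr11:32000605-32000664, plus strand): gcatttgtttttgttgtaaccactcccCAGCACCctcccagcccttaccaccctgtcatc
Syn1 (chrX:20921116-20921168, minus strand): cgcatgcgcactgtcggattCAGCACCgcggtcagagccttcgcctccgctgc
Syn1 (chrX:20921062-20921121, minus strand): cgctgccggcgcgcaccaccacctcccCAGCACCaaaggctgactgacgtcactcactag

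Other genes of the same structures were taken from a list of 76, of which 73 were tested. Of these, 30 (41.1%) were higher in the cochlea, 5 (6.85%) higher in the vestibule and 38 not called, with a median log2 fold change of -0.56. The count higher in the cochlea was 38 without cochlea replicate 3 and 29 without vestibule replicate 1, but 14, 13, 14 and 17 without cochlea replicates 1 and 2 and vestibule replicates 2 and 3. Cochlea replicate 3 was the lowest cochlear library and vestibule replicate 1 the highest vestibular one for 42 of the 73, while the same held for 31 of 36 members and 12.0% of all genes. The shares of all genes tested, 11.6% in the cochlear and 15.8% in the vestibular direction, stand beside the counts of each list that follow.

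The other microtubule genes were called in the cochlear direction in 11 of 17. Stmn4, a stathmin, had 9.197, 8.82 and 1.78 CPM in the cochlea and 2.05, 0.156 and 0.550 CPM in the vestibule, a log2 fold change of -2.93 (edgeR, adjusted p = 0.0277). Tubb2b, a tubulin, had 356, 403 and 229 CPM against 109.9, 86.1 and 100.2 CPM and a log2 fold change of -1.87 (edgeR, adjusted p = 0.000432). The libraries of Tubb2b did not overlap between the tissues, while those of Stmn4 did. Of 24 vesicle release genes, 9 were higher in the cochlea and 4 in the vestibule, the latter a share near that of all genes. Slc17a7, a vesicular glutamate transporter, had 22.5, 15.4 and 4.07 CPM in the cochlea and 0.861, 0.584 and 0.432 CPM in the vestibule, without overlap, and a log2 fold change of -4.58 (edgeR, adjusted p = 0.000814). Sncb of the synuclein family had 13.3, 11.4 and 3.66 CPM against 3.09, 0.117 and 2.04 CPM, also without overlap, and a log2 fold change of -2.54 (edgeR, adjusted p = 0.0419). Higher in the vestibule were Syngr1, Sv2c, Syt2 and Vamp1, with log2 fold changes of 0.82 to 1.45. These 4 are named because they are the ones that went the other way.

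The granule genes were called in the cochlear direction in 4 of 8. Pcsk1n, an inhibitor of a granule protease, had 15.04, 12.05 and 4.28 CPM in the cochlea and 4.07, 0.701 and 2.94 CPM in the vestibule, a log2 fold change of -2.13 (edgeR, adjusted p = 0.0313). Pcsk2, a protease that cuts prohormones, had 25.5, 22.7 and 14.3 CPM against 7.28, 7.20 and 3.14 CPM and a log2 fold change of -1.96 (edgeR, adjusted p = 0.00247). In both genes all cochlear libraries were above the vestibular ones. The RNA-binding genes were called in 1 of 9, a share near that of all genes. The gene was Celf2, with 202, 223 and 237 CPM against 123, 145 and 160.4 CPM and a log2 fold change of -0.74 (edgeR, adjusted p = 0.00802). Of 15 axon membrane and channel genes, 5 were higher in the cochlea and 1 in the vestibule. Gng3, a G protein subunit, had 25.8, 24.3 and 8.04 CPM against 6.68, 3.66 and 6.67 CPM and a log2 fold change of -1.89 (edgeR, adjusted p = 0.0127). The gene higher in the vestibule was the adhesion gene Chl1, with 8.58, 5.59 and 4.86 CPM against 28.3, 29.6 and 27.8 CPM and a log2 fold change of 2.06 (edgeR, adjusted p = 0.000187).

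Marker lists of other cells differed in direction. Of the 10 genes listed for otic ganglion neurons, 8 passed the limit of 1 CPM and Neurog1 had no count in any library. Their sum was 369 to 437 CPM in the cochlea and 189 to 221 CPM in the vestibule, and Gata3, Isl1 and Ntrk2 made up most of it, of which Gata3 and Isl1 are also known from cells of the cochlear epithelium. Of the 8, Gata3, Isl1 and Shox2 were higher in the cochlea, Prdm12 was higher in the vestibule, and Pou4f1, Ntrk2, Ntrk3 and Ntng1 were not called. Cochlea replicate 3 was the lowest cochlear library for 5 of the 8, with Pou4f1, Shox2 and Ntng1 below 0.5 times the mean of replicates 1 and 2, and vestibule replicate 1 the highest vestibular one for 3. None of the 5 matched genes of autonomic and efferent neurons passed the limit, and their sum was 0.753 to 2.74 CPM in the cochlea and 0.393 to 0.896 CPM in the vestibule. All 8 Schwann and satellite glia markers passed, with a sum of 749 to 914 CPM in the cochlea and 1160 to 1408 CPM in the vestibule, all vestibular libraries being higher. Brain glia markers, with 3 of 5 past the limit, summed to 38.2 to 78.7 CPM in the cochlea and 75.99 to 116 CPM in the vestibule. Of the 5, Aqp4 was higher in the vestibule (edgeR, adjusted p = 0.000286), and Gfap and Slc1a2 were not called. Olig1 had 0 to 0.684 CPM in the cochlea and 0.973 to 1.84 CPM in the vestibule. Olig2 was at 0 to 0.149 CPM over all libraries, and neither Olig1 nor Olig2 passed the limit. Supporting cell markers, all 7 past the limit, summed to 1351 to 1575 CPM in the cochlea and 1305 to 1367 CPM in the vestibule. Of the 7, Sox2, Hes5, Jag1, Cdkn1b and Cdh1 were higher in the cochlea, the direction of the members, Epcam was higher in the vestibule and Lfng was not called. Mesenchyme markers summed to 3749 to 4584 CPM in the cochlea and 7325 to 8476 CPM in the vestibule, endothelial markers to 56.1 to 87.9 CPM and 330 to 472 CPM, and macrophage markers to 84.2 to 99.0 CPM and 314 to 347 CPM. The sums of cartilage markers (10452 to 17812 CPM and 12977 to 16377 CPM) and of red blood cell markers (253 to 626 CPM and 408 to 541 CPM) overlapped between the tissues. Most of the cartilage sum was Col2a1, and of the 5 cartilage genes Acan and Comp were higher in the vestibule, Matn1 was higher in the cochlea, and Col2a1 and Col9a1 were not called. The part of these cells in the members' difference was not tested.

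Exons of 12 tested members overlap those of another gene in GENCODE vM21, on the opposite strand for 10 of them, Uchl1 included. Whether strand was used in counting is not given in the sources used here, so reads of such pairs may not be told apart.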

How the data were processed

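The authors aligned paired reads to GRCm38 with TopHat2 2.1.0, handled the alignments with SAMtools 0.1.18 and counted read pairs per Ensembl gene with HTSeq 0.5.4p5. They deposited these counts for each library. Log2 RPKM values in a second deposited table came from the authors as well, and their processing notes name edgeR 3.4.2. The library kit marks strand, per the labels, but the strand setting of the counting is not given in the sources used here. The 5 summary lines of each count file, 18.5 to 20.6% of its total, were left out.

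From the counts, genes reaching 1 CPM in 3 or more libraries out of 6 were tested with edgeR 4.0.16 (TMM scaling, quasi-likelihood test, R 4.3.3), with Benjamini-Hochberg adjustment over 14723 genes and an FDR of 0.05. Standard errors are the log2 fold change divided by the root of the F statistic. A level of 1 CPM rests on at least 24.5 counts, and the spread between libraries was wider than counting error. On simulated counts for this comparison (14547 genes), 61.6% of genes changed 2-fold and 98% of those changed 4-fold were recovered. These shares may not hold for the members, whose replicates spread more widely. The members' median SD of log2 CPM was 0.74 (cochlear libraries) and 0.72 (vestibular libraries), against 0.22 and 0.18 for all genes tested. Alternatives were RLE, upper quartile and library size scaling, no filter, filterByExpr, DESeq2 1.42.0, limma-voom (limma 3.58.1), a replicate block and leaving out each library. Levels between genes use RPKM.

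The members, the related genes and the marker lists were chosen with earlier results of these data known. Full values are given for members past the FDR with the largest changes, at most 3 per role and direction, for the member with the highest level per length in each role, and for the 2 largest called changes in each related list. Members outside that rule that are given by library or with an adjusted p were chosen after their values were seen.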

Additional observations from a re-analysis of the deposited data

How the results depend on the processing

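The number of members called higher in the cochlea was 17 with library size alone, 18 with the replicate block, 21 with limma-voom, 22 with RLE, upper quartile, filterByExpr and DESeq2 and 25 without the filter, against 22. Of all 14723 genes, 1009 were called in that direction with the replicate block, 1690 with limma-voom, 1788 with RLE, 1607 with upper quartile and 2033 with DESeq2. With filterByExpr it was 1857 of 16258 genes, and without the filter 1993 of 24771. Leaving out 1 library gave 9 to 30 for the members and 13 to 38 for the related genes, and their median log2 fold change stayed at -1.81 to -1.29 for the members. The median SD of log2 CPM over the members was 0.162 to 0.843 in the cochlea and 0.440 to 0.905 in the vestibule over these fits, the lowest without cochlea replicate 3 and without vestibule replicate 1. With log2(RPKM + 1) the median level in the vestibule was 1.85. Library size alone moved the all-gene median to 0.13 on the log2 scale and gave 1249 genes higher in the cochlea and 2754 in the vestibule, against 1711 and 2325. The sign of Nefm turned with library size alone (0.11) and in 4 of the fits that leave out 1 library (0.03 to 0.23, the lowest of all 6 being -0.63), and that of Thy1 with limma-voom (-0.013), the replicate block (-0.0064) and without cochlea replicate 3 (-0.02) or vestibule replicate 1 (-0.31, the highest of all 6 being 0.60). Neither gene was called, and the cause was not tested. Libraries of the same number did not deviate together (r = -0.175, -0.26 and -0.474 across genes, which are not independent replicates). These values cannot decide whether libraries of the same number came from the same ears, since other differences within a tissue could hide it. With the replicate block 20 related genes were higher in the cochlea and 4 in the vestibule, and 2618 of all genes were called against 4036. With 3 libraries per tissue, single libraries weigh on every call.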

Other observations

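Genes outside the set with nearly the same profile over the 6 libraries were looked for after the values were seen, by the root mean square difference between a gene's log2 CPM, centred on its own mean, and the members' mean profile. The measure is a description over 6 libraries and has no test. The nearest were Disp2 (0.0869), Ndrg4 (0.0970), Fam131b (0.113), Rufy3 (0.146) and Prmt8 (0.153). Disp2 had 24.7, 26.5 and 11.4 CPM in the cochlea and 12.5, 4.36 and 6.398 CPM in the vestibule. Ndrg4 had 108, 90.6 and 42.3 CPM against 46.7, 21.1 and 29.3 CPM. As in most members, cochlea replicate 3 was the lowest cochlear and vestibule replicate 1 the highest vestibular library for both genes. Among the 100 nearest of 14723 genes 10 were members, Syn1 (0.193) and Chgb (0.195) the nearest of them, and Syt4 (1.19) was the farthest member.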
